A study of Homo sapiens with 6 samples.

Results

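Of the 1630 genes in the deposited table, 34 had a mean below 0.5 in cells with a control hairpin, and a mean of at least 1 and at least 4 times higher in cells with a hairpin against CREPT. They were chosen from named rows, leaving out names with a hyphen, the families beginning LINC, LOC, ZNF, SLC, ABC or PCDH, and 4 cytokine genes (CCL3, CCL3L3, CCL4 and CSF2). The values that chose them are those of the comparison itself, so their levels in both groups are given as a description, with no test. Without the filter on names, 57 rows met the same levels, and the same rule with the groups swapped found 54 genes.

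The cells were U87MG, an established human glioblastoma line. Total RNA was sequenced in 6 libraries, 3 from cells with the control hairpin (shControl) and 3 from cells with the hairpin against CREPT (shCREPT). The labels give neither the time after the hairpin was introduced nor its sequence, do not say whether the 3 shCREPT libraries share 1 hairpin, and do not say whether replicates were grown separately, so the spread between libraries may be technical. CREPT is the protein of RPRD1B, which has no row here, so the knockdown was not checked. The table lists only genes that its authors marked significant. RPRD1B was thus not among the genes listed as changed, and the table gives no evidence that its RNA fell. The sum of the listed values in a library ran from 31894 to 33331. The number of reads is unknown, and the table does not say whether values are scaled by gene length. The level of a gene is therefore compared between groups and not with that of another gene. Medians and sums over genes are descriptions, and a sum is led by its highest genes.

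CREPT binds the tail of RNA polymerase II and takes part in transcription. U87MG cells derive from a glial tumour, and of 15 fixed markers of astrocytes and oligodendrocytes 5 have a row, among them GFAP, at a mean of 433.6 in shControl and 45.5 in shCREPT (limma adjusted p = 1.53e-06). None of the 34 genes is among the 127 fixed markers of this and other cell types. Most of these markers have no row, and they leave out CD33, of myeloid cells, and CALB2, of interneurons. Nothing is therefore read from that absence. By known role they are a mixed set: cytokine-type ligands and receptors known from blood cells, a connexin known from skin, sensors of foreign nucleic acid, and enzymes of sphingolipids.

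The description "switched on" holds in part. Only C13orf42, CCL4L2 and CALB2 were listed at 0 in all 3 shControl libraries, 8 genes were at 0 in 1 or 2 of them, and 23 were above 0 in every shControl library. None was at 0 in any shCREPT library, and 26 were at or above 1 in all 3. Means ran from 1.06 to 13.1 in shCREPT, with a median of 2.03, against a median of 1.93 over all rows. In shControl the median of the 34 was 0.253, against 2.51 over all rows. The authors marked all 34 up, as they did 40.3% of the whole table, and nothing is read from that because the choice of genes fixes it.

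**Figure D1:**
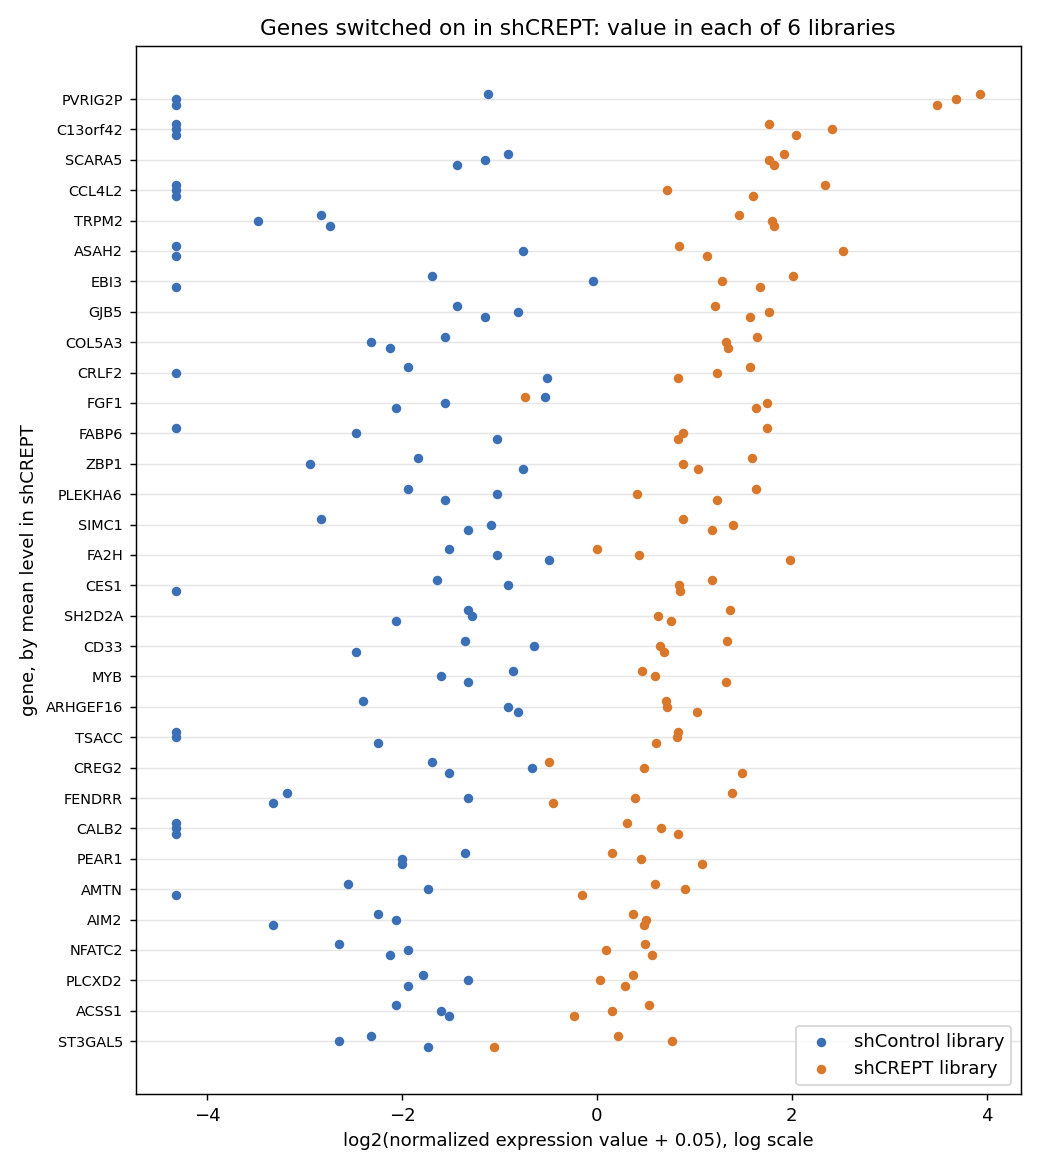
Value of 32 of the 34 genes in every library, as log2(value + 0.05), with shControl in blue and shCREPT in orange, 1 row of points per gene. Points at the far left are listed at 0, and FGF1 is the gene with an orange point left of a blue one.

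The ranges of the 2 groups did not overlap in 33 of the 34 genes. Of all rows, 37.8% had every shCREPT library above every shControl library, as had 93.8% of the rows marked up, and 93.3% of all rows had no overlap in either direction. Since the choice of genes used these values, nothing is read from that count. The exception was FGF1. On the log2(mean + 1) scale the median difference between the group means was 1.30 over the 34 genes, −0.47 over all rows and 0.97 over the other rows marked up. The ratio of the means, which exists for 31 genes, ran from 4.18 to 95.6 with a median of 7.69. In 15 of the 31 it moved by over 1.5 times when 1 library was left out, and in 3 of these, PVRIG2P, ASAH2 and TSACC, the shControl mean then became 0.

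**Figure D2:**
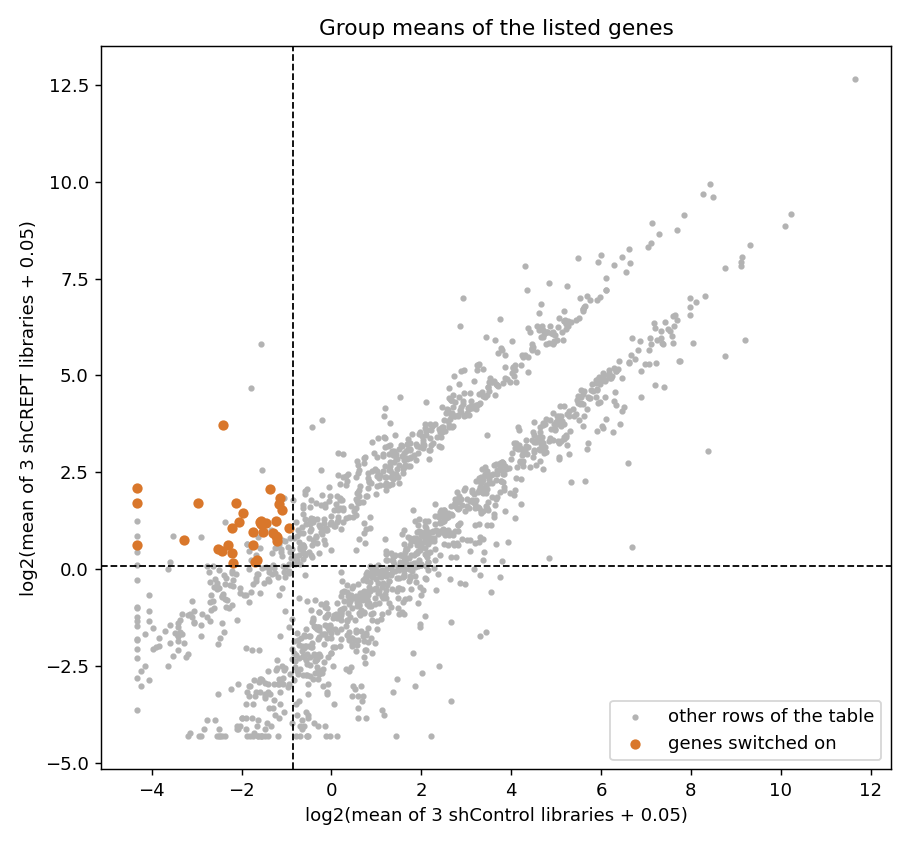
Mean of the 3 shCREPT libraries against the mean of the 3 shControl libraries for each listed gene, both as log2(mean + 0.05). Dashed lines mark the limits of 0.5 in shControl and 1 in shCREPT, and the 34 genes, in orange, fill the upper left corner by construction.

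Several genes lie close to those limits. FA2H, with a mean of 0.467 in shControl, was just inside the limit of 0.5, and CRYBB2P1 (0.503) and BATF2 (0.53) were just outside it. ST3GAL5 (1.06), ACSS1 (1.09) and PLCXD2 (1.13) were just above the limit of 1 in shCREPT, and BIK (0.997), AJAP1 (0.957) and TBC1D3I (0.953) just below it. CREG2, with a ratio of 4.18, was the nearest inside the limit of 4, and TMOD1, with 3.86, the nearest outside. Genes on the 2 sides of a limit thus differed by little.

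Promoter sequences were looked at because all 34 genes were low in one group and higher in the other. RefSeq (GRCh38.p14) gave a promoter, 250 bases before to 50 after the start, for 22 of the 34; the genes without one include CALB2, CCL4L2, CES1, CRLF2, GJB5, PLCXD2, PVRIG2P, SCARA5, SH2D2A and ZBP1. A gene can have other start sites than the 1 used. Letters were searched on both strands. The 7 stretches below are the 250 bases before the start site, and are shown because 6 of them hold a rarer motif; that of C13orf42 is shown because the gene was listed at 0 in shControl. Capitals mark TGANTCA (the AP-1 motif), TATAAA (the TATA box), TGACGTCA (the cyclic AMP element) and CCAAT, or their reverse complements.
EBI3 (chr19:4229273-4229522, plus strand, GRCh38.p14): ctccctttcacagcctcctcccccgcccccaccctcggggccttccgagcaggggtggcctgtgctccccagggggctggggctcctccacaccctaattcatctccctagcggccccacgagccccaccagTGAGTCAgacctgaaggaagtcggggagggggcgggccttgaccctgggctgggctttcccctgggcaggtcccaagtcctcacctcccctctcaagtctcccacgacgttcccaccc
AIM2 (chr1:159076767-159077016, minus strand, GRCh38.p14): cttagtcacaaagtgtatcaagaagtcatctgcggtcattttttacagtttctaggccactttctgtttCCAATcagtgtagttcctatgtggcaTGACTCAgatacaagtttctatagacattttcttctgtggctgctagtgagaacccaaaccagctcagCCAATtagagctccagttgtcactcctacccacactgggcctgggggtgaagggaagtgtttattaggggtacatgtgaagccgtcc
ASAH2 (chr10:50251517-50251766, minus strand, GRCh38.p14): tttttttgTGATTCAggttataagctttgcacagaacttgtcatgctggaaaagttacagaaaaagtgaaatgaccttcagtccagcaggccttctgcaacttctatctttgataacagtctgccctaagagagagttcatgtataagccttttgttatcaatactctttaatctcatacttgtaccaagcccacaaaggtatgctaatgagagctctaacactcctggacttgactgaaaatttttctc
FABP6 (chr5:160229256-160229505, plus strand, GRCh38.p14): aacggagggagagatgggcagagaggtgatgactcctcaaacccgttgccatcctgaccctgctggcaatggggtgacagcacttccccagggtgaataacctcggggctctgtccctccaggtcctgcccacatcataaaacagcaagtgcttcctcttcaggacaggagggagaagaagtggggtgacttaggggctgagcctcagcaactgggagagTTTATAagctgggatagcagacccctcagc
NFATC2 (chr20:51562840-51563089, minus strand, GRCh38.p14): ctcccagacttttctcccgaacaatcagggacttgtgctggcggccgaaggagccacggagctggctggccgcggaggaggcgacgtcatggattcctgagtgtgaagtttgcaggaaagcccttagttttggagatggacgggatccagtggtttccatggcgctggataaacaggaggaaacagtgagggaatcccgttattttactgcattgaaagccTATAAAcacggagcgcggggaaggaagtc
ST3GAL5 (chr2:85888991-85889240, minus strand, GRCh38.p14): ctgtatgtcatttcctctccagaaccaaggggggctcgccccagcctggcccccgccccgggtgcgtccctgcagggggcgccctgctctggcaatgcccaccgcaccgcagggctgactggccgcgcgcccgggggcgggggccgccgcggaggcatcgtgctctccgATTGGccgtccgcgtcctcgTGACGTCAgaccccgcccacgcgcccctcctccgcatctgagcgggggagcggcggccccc
C13orf42 (chr13:51111275-51111524, minus strand, GRCh38.p14): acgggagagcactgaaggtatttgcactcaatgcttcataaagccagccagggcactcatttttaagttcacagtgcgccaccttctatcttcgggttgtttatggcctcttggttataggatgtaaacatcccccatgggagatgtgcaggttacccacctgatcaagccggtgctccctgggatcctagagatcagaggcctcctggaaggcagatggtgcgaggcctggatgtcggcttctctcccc

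The letters TGANTCA were found in the windows of EBI3 (TGAGTCA), AIM2 (TGACTCA) and ASAH2 (TGATTCA, the loose form alone). Their first base was at −118, −155 and −242 from the start site. That is 3 of 22 promoters (13.6%), against 7.76% of 27305 promoters and 7.73% of the 970 promoters of named rows in the table. TATAAA was found in NFATC2, with the first base at −29, and its reverse complement TTTATA in FABP6, at −30. Counting both strands, the share was 9.09%, against 12% of all promoters. Of the 22, ST3GAL5 held TGACGTCA, at −61 (4.55% against 1.98%). CCAAT was in 7 (31.8% against 35.7%), GGGCGG, the GC box, in 13 (59.1% against 44.6%, and 58.6% of the promoters of named rows) and CANNTG, the E-box, in 14 (63.6% against 68.9%). A loose form of the NF-kappaB motif, which can overlap a GC box, was in 14 (63.6%), between the 58.0% of all promoters and the 67.5% of those of named rows. A ratio of observed to expected CpG of at least 0.6 was reached by 10 of the 22 (45.5%), against 49.0% of all promoters and 59.1% of those of the named rows. With 22 promoters, 1 promoter is worth over 4 percentage points, and these shares are descriptions of letters, not of binding.

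Among the secreted and matrix proteins, EBI3 is a subunit shared by the heterodimeric cytokines interleukin-27 and interleukin-35. It was listed at 0, 0.92 and 0.26 in shControl and at 3.15, 2.39 and 3.99 in shCREPT, a mean 8.08-fold higher, or 24.4-fold without the second shControl library. CCL4L2 (chromosome 17, 36210924 to 36212878, plus strand, GRCh38), a chemokine gene and near copy of CCL4, was listed at 0 in all 3 shControl libraries and at 2.98, 1.60 and 5.01 in shCREPT. Its levels in shCREPT spread more than 3-fold between libraries. FGF1, a growth factor that signals through all classical FGF receptors, had 0.19, 0.29 and 0.64 in shControl and 3.04, 3.30 and 0.55 in shCREPT. The third shCREPT library lay below the highest shControl library, and the mean of 2.30 rests on the other two.

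COL5A3, a chain of the fibril-regulating collagen V, was steadier. Its values were 0.18, 0.15 and 0.29 in shControl and 2.49, 2.45 and 3.08 in shCREPT, a mean 12.9-fold higher, and every shCREPT library was over 8 times the highest shControl one. AMTN, a protein of the enamel surface, had 0, 0.25 and 0.12, then 0.85, 1.82 and 1.46. CREG2, a secreted glycoprotein, had 0.30, 0.58 and 0.26, then 2.76, 1.35 and 0.66, and its lowest shCREPT library was barely above its highest shControl one.

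The surface receptors were CRLF2, CD33, SCARA5 and PEAR1. CRLF2 is the receptor chain for the epithelial cytokine TSLP and lies in the pseudoautosomal region. It had 0.65, 0 and 0.21 in shControl and 1.73, 2.30 and 2.91 in shCREPT. CD33, a sialic acid-binding inhibitory receptor of myeloid cells, had 0.13, 0.59 and 0.34, then 1.56, 1.52 and 2.47, a mean 5.24-fold higher, or 7.87-fold without the second shControl library. Of 19 fixed markers of microglia, macrophages and monocytes none has a row in this table of selected genes, which does not tell their level.

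SCARA5, a scavenger receptor that takes up ferritin, had 0.32, 0.40 and 0.48 in shControl and 3.47, 3.35 and 3.72 in shCREPT. Its mean was 8.78-fold higher, and its coefficient of variation in shCREPT was 5.37%, among the lowest of the 34. PEAR1, a platelet contact receptor, had 0.20, 0.20 and 0.34, then 2.06, 1.32 and 1.06.

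Connexins build the gap junction channels that join neighbouring cells, and GJB5 encodes a beta connexin of the epidermis (chromosome 1, 34755047 to 34758512, plus strand, GRCh38). It had 0.40, 0.52 and 0.32 in shControl and 2.92, 3.34 and 2.26 in shCREPT, a mean 6.87-fold higher. Its lowest shCREPT library was over 4 times its highest shControl library.

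Of 18 fixed epithelial markers, 5 have a row: CLDN4 and MUC16 rose, and KRT19, KRT5 and MUC1 fell, each with a limma adjusted p of 0.00258 or lower, the call of MUC1 being lost under median-of-ratios rescaling (adjusted p = 0.0545). Their summed level was 41.7 to 66.6 in shControl and 41.6 to 47.1 in shCREPT, and the part of other cell types in the values of GJB5 was not tested. Over all tested rows, 40.6% were called higher and 57.3% lower (481 and 678 rows), and under median-of-ratios rescaling 523 and 345 rows.

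TRPM2 is a calcium-permeable channel opened by ADP-ribose and oxidative stress (chromosome 21, 44350163 to 44443081, plus strand, GRCh38). It had 0.10, 0.04 and 0.09 in shControl and 3.47, 3.42 and 2.69 in shCREPT, a mean 41.7-fold higher. TRPM2-AS, an antisense gene within the span of TRPM2, was listed at 0 in all 3 shControl libraries and at 1.12, 3.10 and 1.08 in shCREPT. The annotation gives the pair no overlapping exon. Its relative TRPM4, a sodium-permeable channel, fell from a mean of 14.2 to 6.58 (limma log2 change −0.99 ± 0.13 SE, adjusted p = 0.000342), a call lost under median-of-ratios rescaling (adjusted p = 0.207).

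**Figure D3:**
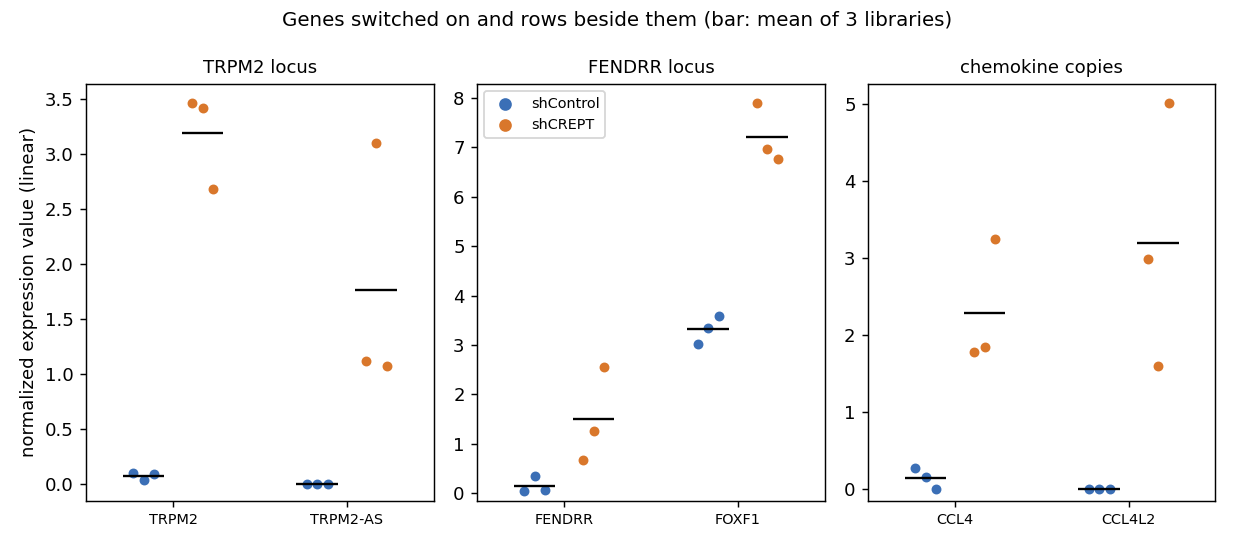
Normalized values, on a linear axis, of TRPM2 with TRPM2-AS, FENDRR with FOXF1, and CCL4 with CCL4L2, with 1 point per library and a bar at each mean of 3. In every panel the shCREPT points lie above the shControl points of the same gene.

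Both nucleic acid sensors detect foreign or misplaced nucleic acid in the cell. AIM2 binds double-stranded DNA and assembles an inflammasome, and ZBP1 binds Z-form nucleic acid and can start necroptosis. AIM2 had 0.05, 0.19 and 0.16 in shControl and 1.35, 1.37 and 1.24 in shCREPT, a mean 9.90-fold higher with the smallest relative spread of the 34 (5.30%). ZBP1 had 0.54, 0.08 and 0.23, then 2.0, 1.79 and 2.97, a mean 7.95-fold higher, or 14.5-fold without the first shControl library. Of the genes they act with, PYCARD, CASP1, IL1B, IL18, GSDMD, RIPK1, RIPK3, MLKL and ADAR, none has a row, which does not tell their level. Of 30 fixed interferon-stimulated genes, 3 have a row: MX2 and XAF1 rose and GBP4 fell (limma adjusted p = 5.76e-05, 0.000405 and 0.000181).

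A class assigned by hand, with 9 of the 34, held transcription factors, signalling proteins and some others. Its transcription factors were MYB and NFATC2. MYB, a factor of blood progenitors, had 0.35, 0.28 and 0.50 in shControl and 2.46, 1.46 and 1.33 in shCREPT. NFATC2, which the phosphatase calcineurin sends to the nucleus, had 0.18, 0.21 and 0.11, then 1.43, 1.02 and 1.36, a mean 7.62-fold higher. The calcineurin catalytic subunit PPP3CA fell from a mean of 22.8 to 10.9 (limma log2 change −1.01 ± 0.08 SE, adjusted p = 3.34e-05), a call lost under median-of-ratios rescaling (adjusted p = 0.0792), and the calcineurin regulator RCAN1 fell from 588 to 60.2 (adjusted p = 1.53e-06). SH2D2A, an adaptor of T cells, had 0.19, 0.36 and 0.35, then 1.64, 1.49 and 2.52.

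CALB2 (calretinin, a calcium-binding protein of interneurons; chromosome 16, 71358713 to 71390438, plus strand, GRCh38) was listed at 0 in all 3 shControl libraries and at 1.73, 1.53 and 1.19 in shCREPT. Its relative CALB1, calbindin, was measurable in shControl and rose from a mean of 2.62 to 10.9 (limma log2 change 1.73 ± 0.11 SE, adjusted p = 1.65e-05). SIMC1, which binds SUMO, had 0.35, 0.42 and 0.09, then 2.22, 2.59 and 1.80, and PLEKHA6, an adaptor at cell junctions, had 0.29, 0.44 and 0.21, then 2.30, 1.28 and 3.06. ARHGEF16, a guanine nucleotide exchange factor, had 0.52, 0.48 and 0.14, then 1.99, 1.60 and 1.58, and PLCXD2 had 0.21, 0.35 and 0.24, then 1.17, 0.97 and 1.24. TSACC, a cochaperone of a testis kinase, was listed at 0.16, 0 and 0 in shControl and at 1.47, 1.72 and 1.73 in shCREPT.

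Sphingolipids are membrane lipids built on ceramide, and 3 of the genes encode enzymes that act on them. ASAH2, neutral ceramidase, splits ceramide; FA2H adds a hydroxyl group to its fatty acid; ST3GAL5 makes the ganglioside GM3. ASAH2 was listed at 0, 0.54 and 0 in shControl and at 2.14, 5.70 and 1.74 in shCREPT. FA2H had 0.66, 0.44 and 0.30, then 3.89, 1.30 and 0.95, and ST3GAL5 0.25, 0.11 and 0.15, then 0.43, 1.65 and 1.11. In each of the 3 enzymes the highest shCREPT library was over 3 times the lowest, and it was the first library for FA2H and the second for the other two.

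Other sphingolipid genes moved in both directions. SPHK1, which phosphorylates the sphingosine that ceramidases release, rose from a mean of 2.34 to 8.97 (limma log2 change 1.58 ± 0.08 SE, adjusted p = 8.68e-06). ST8SIA1, which extends GM3 to GD3, fell from 3.32 to 1.5 (limma adjusted p = 0.004), and lost that call under median-of-ratios rescaling (adjusted p = 0.343). CERS4, a ceramide synthase, went from 1.10 to 0.39, too low to be tested. The other genes looked for, such as ASAH1, UGCG and DEGS1, have no row, which does not tell their level.

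Among the other proteins of lipid and acetate metabolism, CES1, a carboxylesterase, was listed at 0, 0.48 and 0.27 in shControl and at 1.76, 1.74 and 2.21 in shCREPT. FABP6, the bile acid-binding protein of the ileum, had 0.44, 0.13 and 0, then 1.73, 1.79 and 3.31, while its relative FABP7, of radial glia, fell from a mean of 147 to 26.9 (limma adjusted p = 3.1e-06). ACSS1, the mitochondrial acetyl-CoA synthetase, had 0.30, 0.28 and 0.19, then 0.80, 1.06 and 1.40.

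The noncoding or uncharacterised genes were FENDRR, C13orf42 and PVRIG2P. FENDRR (chromosome 16, 86474529 to 86509099, minus strand, GRCh38) is a long noncoding RNA that starts beside the mesoderm factor FOXF1, 1.43 kb away. It had 0.05, 0.35 and 0.06 in shControl and 0.68, 1.26 and 2.56 in shCREPT, while FOXF1 had 3.02, 3.34 and 3.59, then 7.89, 6.97 and 6.75 (limma log2 change 0.93 ± 0.10 SE, adjusted p = 9.96e-05). FENDRR was thus highest in the library where FOXF1 was lowest among the 3. C13orf42 (chromosome 13, 51082119 to 51200252, minus strand) was listed at 0 in all 3 shControl libraries and at 4.07, 5.26 and 3.35 in shCREPT. PVRIG2P, a pseudogene related to the lymphocyte receptor gene PVRIG, had 0, 0 and 0.41, then 11.16, 12.82 and 15.23. Its ratio of means, 95.6, rests on 1 shControl library, since the other two are listed at 0.

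How far the values belong to the named gene alone differs between genes. In 24 of the 34, no stretch of 50 bases in the longest GENCODE v29 transcript occurs in a transcript of another gene. For PVRIG2P 100% of these stretches do, mainly in PILRB and a readthrough transcript that overlap its exons on the same strand, so its value is uncertain. The share was 52.7% for ASAH2 (mainly ASAH2B), 31.5% for CES1 (CES1P1), 19.8% for SIMC1 and 13.4% for CCL4L2 (CCL4). CCL4, which was left out by name, had 0.27, 0.16 and 0 in shControl and 1.78, 1.84 and 3.25 in shCREPT, and reads of the copies may have been divided between them. Antisense genes also overlap an exon of SCARA5, COL5A3, FABP6 and MYB, and since it is not stated whether the counting used strand, reads of the gene and its antisense partner cannot be told apart. An exon of PLCXD2 overlaps an exon of PHLDB2 on the same strand, so its value is uncertain whatever the strand setting.

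The genes were spread over 16 chromosomes, with 9 on chromosome 1 and 4 on chromosome 16. Within 100 kb, 11 of the 34 (32.4%) had another listed row, as did 32.1% of the other rows marked up and 33.3% of those marked down. The nearest row within that distance was marked up for 10 of the 34 (29.4%), against 22.4% of the other rows marked up and 6.15% of those marked down. Besides TRPM2 and FENDRR, these included SH2D2A and PEAR1, which lie 76.8 kb apart, and CCL4L2, 14.2 kb from CCL3L3. ARHGEF16 was the 1 gene with a neighbour marked down, MEGF6, at 8.81 kb.

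Relatives were the 21 other rows with the same letters, at least 3 of them, before the first digit of the symbol, and no hyphen in it. CD33, FA2H, SH2D2A, ST3GAL5 and C13orf42 have fewer letters there, so no relatives were looked for. Of these, 5 rose and 10 fell by limma and 6 were too low to be tested, against 40.6% higher and 57.3% lower over all tested rows. Of the 5 other collagens tested, 4 fell, among them COL14A1 (mean 40.0 to 4.72, adjusted p = 1.53e-06) and COL12A1 (151 to 60.4, adjusted p = 1.34e-05), while COL7A1 rose from 13.9 to 50.2 (adjusted p = 1.12e-05). The 4 tested relatives of ARHGEF16, namely ARHGEF5, ARHGEF6, ARHGEF17 and ARHGEF37, fell, ARHGEF6 from 22.6 to 8.12 (adjusted p = 1.2e-05). The other rises were CALB1 and the 3 chemokine genes that the rule left out by name. Those 3 met the levels of the rule, which fixes their rise, so nothing is read from it or from the count that holds them. Of 59 ligands, receptors and partners of the 34 genes, 52 have no row, which does not tell their level. The FGF receptor FGFR2 fell from 5.28 to 1.23 (limma adjusted p = 3.46e-05).

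Of the 8 fixed pathway lists, FGF1 in the list of growth factors was the single one of the 34 genes that any contained. That list had 10 of 47 genes with a row, of which IL11, GDF15 and BMP6 rose, VEGFA, CSF1, EDN1 and WNT5B fell, and 2 were too low to be tested; the calls of CSF1 and EDN1 were lost under median-of-ratios rescaling (limma adjusted p = 0.166 and 0.0923). The NF-kappaB list had 5 of 27, with CXCL8 higher and PTGS2, CD83, TNFAIP6 and VCAM1 lower, and the AP-1 and MAPK list 5 of 32, with FOSL1 and ETV4 higher, EGR1 lower, and MMP1 and MMP13 too low to be tested. Under the same rescaling CD83, PTGS2 and EGR1 lost their calls (adjusted p = 0.0828, 0.394 and 0.0609). The interferon, Wnt, p53, cancer-testis and developmental factor lists held none of the 34. Most genes of the 8 lists have no row, so nothing is read from that absence. Each list holds only part of a pathway, and AIM2 and ZBP1 are not in the interferon list. Their absence from it does not tell whether interferon acts on them.

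Within shCREPT, single genes varied between the libraries. The values are those that chose the genes, so the spread is a description. The coefficient of variation had a median of 26.3%, against 20.2% over the 427 other rows with a shCREPT mean of 1 to 5. It was largest for FA2H (78.5%), ASAH2 (68.3%) and CREG2 (67.3%). In 9 genes the highest shCREPT library was over 2 times the lowest. The third library was the highest for 16 genes, the first for 10 and the second for 8. The 16 included EBI3, CRLF2, CD33, SH2D2A, ZBP1 and CCL4L2, but also SCARA5, COL5A3, FABP6 and CES1. TRPM2, MYB, FA2H and NFATC2 were highest in the first library, and AIM2 in the second. Of the other rows marked up, 28.6% were highest in the third, 33.9% in the first and 37.5% in the second. Summed over the 34, the levels were 84.2, 82.6 and 87.9 in the 3 shCREPT libraries against 7.27, 9.55 and 7.55 in shControl.

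**Figure D4:**
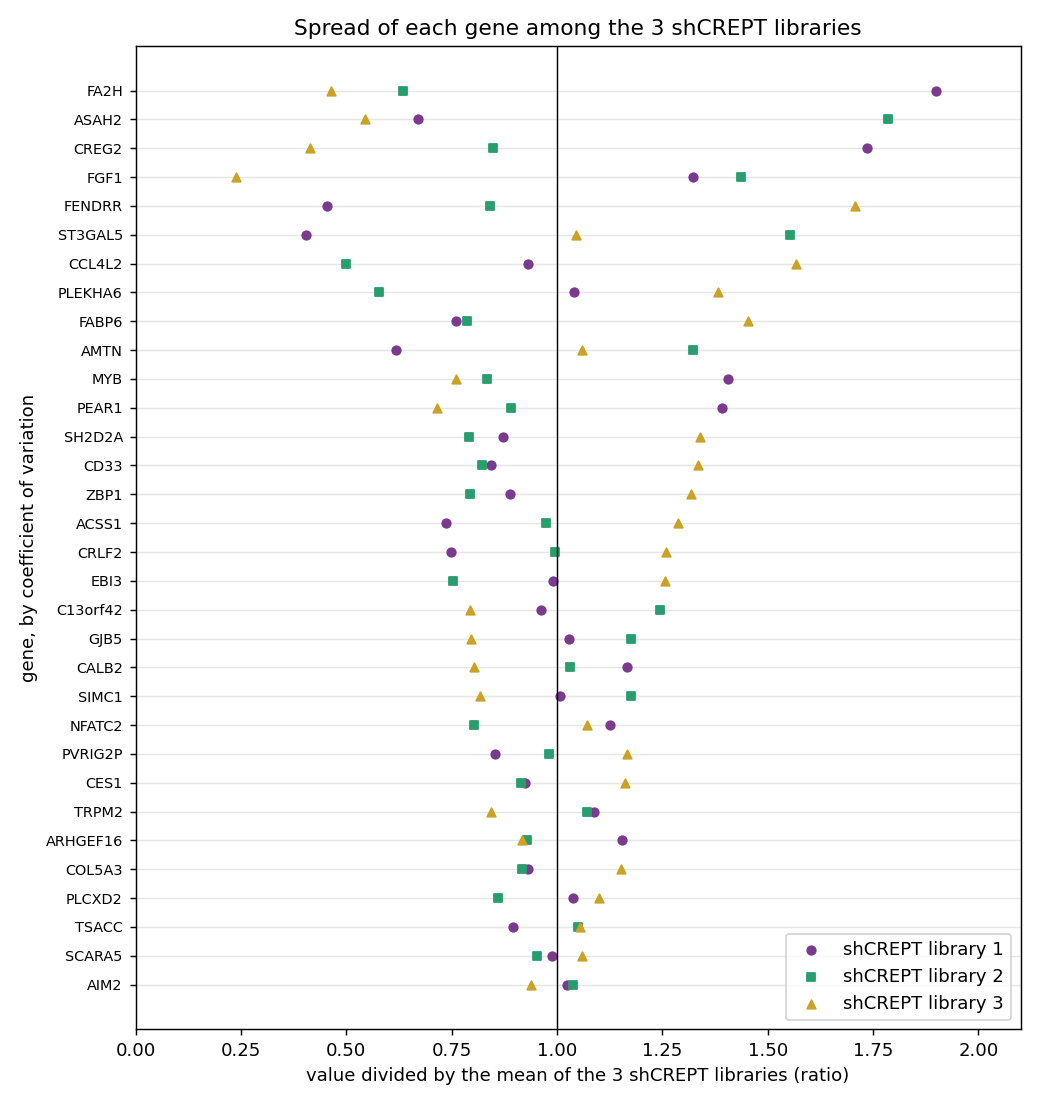
Value of 32 of the 34 genes in each shCREPT library divided by the mean of the 3, on a linear axis, with genes ordered by coefficient of variation. The points of AIM2 and SCARA5 lie close to 1, while FA2H and CREG2 were highest in the first library, ASAH2 in the second, and FGF1 was low in the third.

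The values and the fold changes of the authors did not always give the same size. In 13 of the 31 genes with a ratio (41.9%), the log2 ratio of the means and the fold change that the authors' deposited table gives lay over 0.5 apart on the log2 scale, against 8.07% of the other rows marked up and 18.8% of those among them with a shControl mean under 0.5. The ratio was the larger in 10 and the smaller in 3 (EBI3, AIM2 and CES1). The rule chose the genes on this ratio, which favours genes where it is large, so these shares are a description and nothing is read from them. For PLEKHA6 the log2 ratio was 2.82, while the authors' deposited table gave a log2 fold change of 1.18. For ST3GAL5 these log2 values were 2.65 and 1.45, and for CREG2 2.07 and 1.03. In the other direction, CES1 had a log2 ratio of 2.93 and a log2 fold change of 4.35 in the authors' deposited table. These genes had more annotated transcripts, a median of 7 against 4.5 in the other 18, and 6 of the 13 against 2 of the 18 had a highest shCREPT library over 2 times the lowest; the part of either in the difference was not tested.

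**Figure D5:**
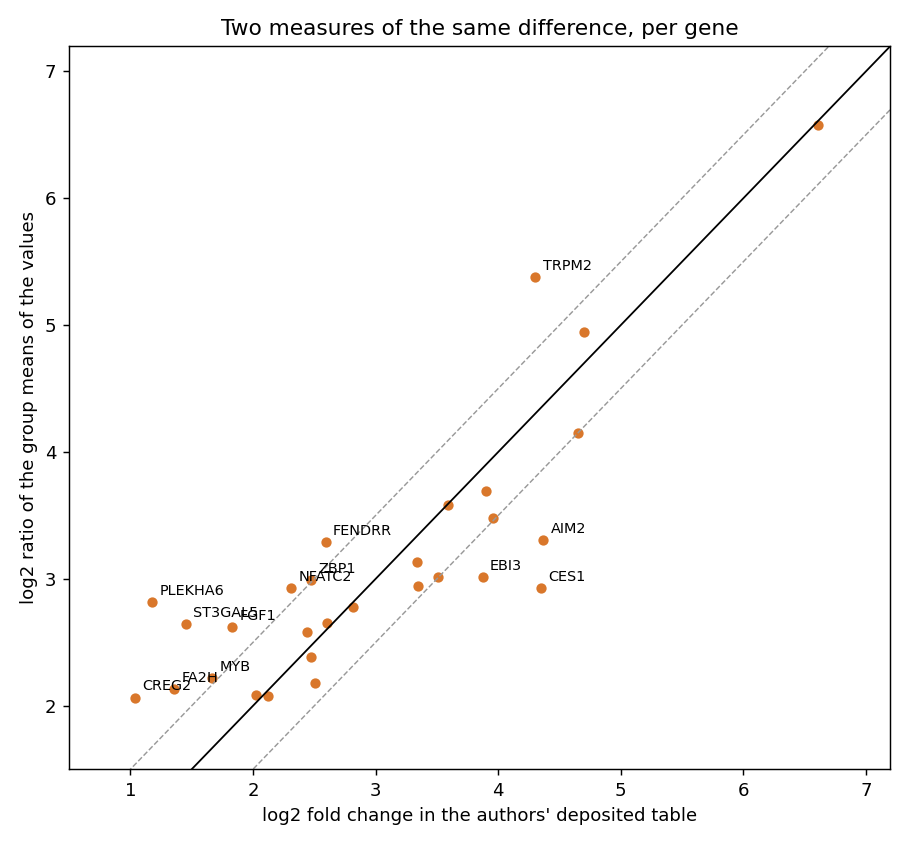
Log2 ratio of the group means against the log2 fold change in the authors' deposited table for 29 of the 31 genes with a shControl mean above 0. The solid line marks equal values, the dashed lines a difference of 0.5, and the 13 named genes lie outside the dashed lines.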

How the data were processed

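Per the labels' protocols, total RNA of the 6 U87MG samples labelled shControl or shCREPT went into NEBNext Ultra libraries. HISAT2, HTSeq and the build GRCh38 stand in the submitters' processing notes without versions or roles. How values were scaled is not stated in these sources. The deposited signal values are normalized expression with 2 decimals, and the authors also give a ratio (fold change), its log2 value and p-values, per the file headers. Any 2 libraries differed in at least 96% of rows.

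The 34 genes were found by the rule in the report. The genes, lists and roles were chosen with earlier results of these data known, and partners after the names of the 34 were known. Results for 2 of the 34 are not reported here; the others are named, with up to 4 genes of each fixed list by smallest adjusted p, relatives by symbol, and the genes nearest each limit. Further rows of a list are named to complete its count, after their values were seen, and the 7 printed promoters were chosen once their motifs were known. Protein sequences were not analysed here. Other rows were compared with limma 3.58.1 (R 4.3.3) on log2(value + 1), which understates changes of low genes. Rows reaching 1 in 3 or more libraries were tested (1184, among them 26 of the 34), with 2 groups and no covariate, Benjamini-Hochberg adjustment and a threshold of 0.05; the step was tested on simulated data. Every tested row had been selected by the authors for this difference, and 3 against 3 libraries cannot give an exact two-sided permutation p below 0.1. Deviations from the group means did not pair shControl with shCREPT libraries of the same number (r = −0.109, 0.018 and −0.179). Positions came from GENCODE v29 (GRCh38; 1549 rows matched, with all 34 genes) and promoters from RefSeq. Python 3.11.15, numpy 2.4.6, pandas 2.3.3 and matplotlib 3.10.9 were used.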

Additional observations from a re-analysis of the deposited data

How the results depend on the processing

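The number of genes found by the rule was 16 with a shControl limit of 0.25, 17 with a ratio of at least 8, 18 when every library had to meet its limit and 85 under median-of-ratios rescaling, a scaling that moves shCREPT values up by 0.879 (log2) relative to shControl; all 34 genes were among those 85. Leaving out 1 library gave 33 to 40 genes. The genes lost in one or more of these were CD33, CREG2, EBI3, PLCXD2, ACSS1, ARHGEF16, FA2H, MYB, ST3GAL5 and FENDRR, with CREG2, FA2H and ACSS1 lost more than once. The median log2 difference of 1.30 became 2.61 with a pseudocount of 0.1, 0.418 with 5 and 1.64 under that rescaling, and 1.22 to 1.30 with 1 library left out. Limma called 481 rows higher and 678 lower; the rescaling called 345 lower and 523 higher, and leaving out a library gave 388 to 479 higher and 525 to 669 lower. The split moved from 41.5% to 60.3% higher under that rescaling. With the replicate number as a block, 479 and 677 were called. Of the relatives, partners and list genes that limma called, 15 lost their call under the rescaling, all of them lower ones. That scaling takes the median row to be unchanged, while every row here was selected as changed and more were called lower than higher. It moves all rows towards higher in shCREPT, so a call lost under it does not settle whether the gene fell. None lost its call under another alternative that gave it a value (10 of the 63 were too low to be tested under one or more). Those named in the report stand there with their values. With stretches of 100 bases, 3 genes instead of 5 shared over 10% with another gene, a check added after seeing the data. The depth is unknown and sets no bound.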

Other observations

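Rows that met the same levels but were left out by name, beside the 4 cytokine genes, numbered 7. SLC47A1, an exporter of organic cations, had 0.10, 0.13 and 0.43 in shControl and 1.22, 1.60 and 1.70 in shCREPT. SLC7A5P2, a pseudogene of an amino acid transporter, was listed at 0, 0 and 1.03, then 3.38, 2.18 and 7.04, and its reads may come from its parent gene. ZNF737 had 0.39, 0.14 and 0.16, then 0.38, 1.71 and 1.93, so its groups overlapped. The others were TRPM2-AS, TIAM1-AS1, TGIF2-RAB5IF and LINC02478. A further 12 rows carry no gene name, with shCREPT means of 1.01 to 5.83, and 3 of them were listed at 0 in all shControl libraries.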
